A study of Mus musculus with 4 samples.

Results

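Cycling cells with little Olfm4 were examined in the small intestinal epithelium of irradiated mice, the population usually called transit-amplifying cells. They were chosen by their measured transcripts: at least 3 unique molecular identifiers (UMIs, counted RNA molecules) and at least 3 per 10000 UMIs from Mki67, Top2a, Cdk1, Ccnb1, Ube2c, Birc5 and Cenpf together, and under 5 per 10000 from Olfm4. Cells with 10% or more of UMIs from defensins and Lyz1 (Paneth cells) or 2% or more from Muc2, Tff3, Fcgbp, Zg16 and Clca1 (goblet cells) were left out. The rule found 247 such cells among 9591 that passed the filters, a minimum of 1000 UMIs and 500 genes and a mitochondrial share of no more than 25%. The wild-type (WT) library held 106 of them among 5563 cells and the knockout (KO) library 141 among 4028.

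The mice were WT or VilCreIfnlr1fl/fl, in which Cre recombinase under the villin promoter deletes the floxed interferon lambda receptor gene in intestinal epithelial cells. All mice of both genotypes had received 11 Gy of gamma rays with lead over the head, thorax and upper limbs, and no unirradiated mouse is analysed here. Collection is stated as 96 h after irradiation in one place of the series record and as 3 days in another, and these were not reconciled. Live EPCAM-positive, CD45-negative cells of 3 mice per genotype were marked with 1 hashtag antibody per mouse and pooled into 1 mRNA library per genotype; ages are not given in the sources used here, and only the first of the 2 experiments named there was analysed. Genotype, pool and library cannot be told apart from each other, and mice are named by genotype and hashtag number (WT1 to WT3, KO1 to KO3).

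In the intestinal crypt, Lgr5- and Olfm4-expressing stem cells give rise to transit-amplifying daughters that divide rapidly, lose stem cell transcripts and commit to the absorptive or the secretory lineage as they move up. They are among the cells most readily lost after irradiation, and their return is part of crypt repair. Type III interferons (interferon lambda) act on epithelial cells through a receptor made of Ifnlr1 and Il10rb, which signals through the kinases Jak1 and Tyk2 to interferon-stimulated genes. Certain promoter elements recur among the genes described here: the cell cycle genes homology region (CHR) with CCAAT boxes in genes of the G2 and M phases, and the interferon-stimulated response element (ISRE) in interferon targets.

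The promoters of 3 of the genes that chose the cells and of 1 interferon target are shown because the first programme defines the cells and the second lies downstream of the receptor deleted in the KO mice. Each run holds the 140 bases before the RefSeq transcription start (GRCm38.p6), 5′ to 3′ on the gene's strand, with matches in capitals. Capitals in the first 3 mark the CHR (TTTGAA) and the CCAAT box (CCAAT), on either strand, and in the fourth they mark 3 overlapping matches to GAAANNGAAA, the ISRE letters searched.
Cdk1, the mitotic kinase, chr10:69352913-69353052, minus strand: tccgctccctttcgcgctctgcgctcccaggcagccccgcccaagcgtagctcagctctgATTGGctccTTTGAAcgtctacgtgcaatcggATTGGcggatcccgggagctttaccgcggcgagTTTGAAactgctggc
Top2a, the topoisomerase that untangles replicated DNA, chr11:99024190-99024329, minus strand: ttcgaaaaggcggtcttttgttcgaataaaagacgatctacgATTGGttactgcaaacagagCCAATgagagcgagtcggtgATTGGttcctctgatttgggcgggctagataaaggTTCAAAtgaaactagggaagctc
Ube2c, a ubiquitin-conjugating enzyme of mitotic exit, chr2:164769789-164769928, plus strand: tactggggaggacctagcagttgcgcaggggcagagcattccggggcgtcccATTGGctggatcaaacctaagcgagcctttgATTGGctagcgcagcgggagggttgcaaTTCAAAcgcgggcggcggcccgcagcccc
Isg15, a ubiquitin-like interferon product, chr4:156200819-156200958, minus strand: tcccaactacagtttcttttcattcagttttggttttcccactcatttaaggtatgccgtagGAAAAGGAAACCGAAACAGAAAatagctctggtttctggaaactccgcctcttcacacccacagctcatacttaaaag

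Over the 250 bases before the start, searched on both strands, TTTGAA stood in the promoters of 4 of the 7 genes of the rule (Mki67, Top2a, Cdk1 and Ube2c) and CCAAT in 6, all but Birc5. Of all 32851 promoters in the RefSeq table, 16.0% held TTTGAA and 33.8% held CCAAT. Counted by gene, as the lists are, 18.3% and 37.5% of 27025 genes held them in any promoter. Among 42 of the 50 listed G2/M genes outside the rule that had a promoter in the table, 14 held TTTGAA and 32 held CCAAT. Neither was confined to G2/M genes. Among 31 S-phase genes 6 held TTTGAA and 19 CCAAT, and among 39 interferon-stimulated genes 11 and 13 did. The letters GAAANNGAAA stood in 13 of 39 interferon-stimulated genes with a promoter there and in 2.98% of all promoters. A match describes letters in the window and is not a measured binding site.

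Nearly all cells that could be assigned to a mouse came from a single mouse of each genotype. WT1 held 1 such cell among 845 cells (0.118%), WT2 held 53 of 866 (6.12%, exact binomial 95% interval 4.62 to 7.93) and WT3 held 1 of 1062 (0.0942%). KO1 held 1 of 1030 (0.0971%), KO2 held 125 of 995 (12.6%, interval 10.6 to 14.8) and KO3 held 1 of 843 (0.119%). WT2 and KO2 are high and the other 4 mice low, so that the genotypes overlap and each holds 1 high mouse. Intervals here and below cover counting error only, not the spread between mice. Those of summed UMIs also leave out the spread between cells, so they are narrower than that spread would make them.

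The mean share was 2.11% ± 3.47 (SD, n = 3 mice) in WT and 4.26% ± 7.19 (n = 3) in KO, a difference of 2.15 percentage points that was smaller than the spread between mice (2-sided exact permutation test, p = 0.6, with 0.1 the smallest p that 3 mice against 3 allow). Without KO2 the difference turned to -2.00 points, and without both WT2 and KO2 it was 0.0016 points. Cycling cells above the Olfm4 limit followed the same mice, with 46 in WT2 (5.31%), 56 in KO2 (5.63%) and 0 in each of the other 4, which allows shares of up to 0.355% in WT1, 0.282% in WT3, 0.291% in KO1 and 0.356% in KO3. Dissociation and sorting set which cells reached the libraries, so these are shares of sorted cells, not of crypts.

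**Figure D1:**
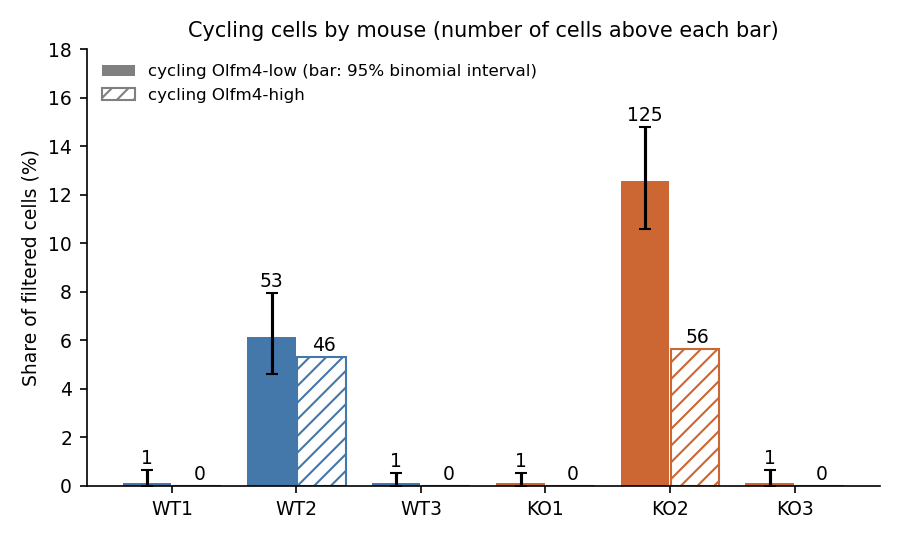
Share of filtered cells (%, y axis) that were cycling and Olfm4-low (filled bars, with the exact binomial 95% interval) or cycling and Olfm4-high (hatched bars) in each of the 6 mice, with the number of cells above each bar. WT2 and KO2 hold 53 and 125 cycling Olfm4-low cells and each other mouse 1.

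Hashtags did not place every cell. In the WT library 32 cycling Olfm4-low cells carried no hashtag and 19 several, against 3 and 11 in the KO library. Hashtag 2 was the strongest in 22 of the 32 and in all 3 of the cells without a call. In cells with several it was the strongest in 4 of 19 in WT and 10 of 11 in KO. It was among the strongest pair of the 3 hashtags in 19 of 19 and 11 of 11. No cell of the population shares its barcode with a cell of it in the other library, and 1 has a barcode that both libraries hold, among 28 such barcodes in all. With 1 mouse per genotype left above 10 cells, no test between genotypes was possible within the population. The comparisons below are of mouse KO2 with mouse WT2, in counts per 1000000 UMIs (CPM) of the summed cells, with exact 95% counting intervals and no p-value.

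These mice also differed from the other mice of their pools outside the cycling cells. In non-cycling Olfm4-low cells, the ribosome biogenesis and translation list summed to 6394 CPM in WT2 and 10264 in KO2, against 1937 to 3175 in the other 4 mice. The enterocyte list summed to 43891 and 32309 CPM there, against 59361 to 87536. Over all filtered cells, the cycling ones included, deviations of mice from their genotype mean were correlated between WT2 and KO2 (r = 0.917 across 5697 genes, which are not independent replicates). The cycling cells add to that correlation, and it was not computed without them. The part of these differences between mice in the results below was not tested.

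The cycling cells were deep. Their median was 54072 UMIs in WT2 and 72497 in KO2, against 10807 and 12018 in non-cycling Olfm4-low cells of the same mice, and mitochondrial transcripts made up 6.31% and 5.59% of their summed UMIs against 11.2% and 9.07%. Thinned to 5000 UMIs, they still held more genes, with medians of 2129 and 2106 against 1724.5 and 1747. When every cell of 5000 UMIs or more was thinned before the rule was applied, the rule took 45 of 747 cells in WT2 (6.02%), 102 of 940 in KO2 (10.9%) and 0 to 2 cells in each other mouse. Cells of 2 mice caught together are seen, and were left out, only where both hashtags were called. No hashtag was called for 40.3% of filtered WT barcodes and 21.2% of KO barcodes, so hashtags can miss such pairs. Pairs of cells from the same mouse also stay in. The part of missed pairs in the depth was not tested.

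The genes of the rule are given as a description, since they chose the cells. Their summed UMIs had a median of 13.0 per 10000 in WT2 (range 3.01 to 51.7) and 15.5 in KO2 (3.03 to 43.2). Just inside the limit, 17 cells had 3 to under 4 per 10000, and just outside, 15 otherwise eligible cells had 2 to under 3; 7 cells had Olfm4 at 4 to under 5 per 10000 and 6 cycling cells at 5 to under 6. Mki67, the proliferation antigen, stood at 242 CPM in WT2 and 245 in KO2, Top2a at 329 and 371, Ube2c at 461 and 471, and Birc5, the survivin of the chromosomal passenger complex, at 384 and 357. All 7 were within 1.13-fold between the mice.

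Of the 50 G2/M genes outside the rule, 50 were above their level in non-cycling cells in both mice, and of the 42 S-phase genes, 42 were. Of all 6170 genes at a mean of 20 CPM or more in the cycling cells, 3931 were. At that level it was 47 of 47 G2/M and 37 of 37 S-phase genes. The G2/M list summed to 6351 CPM in WT2 and 6411 in KO2, against 589 and 651 in non-cycling cells, and the S list to 2840 and 2604 against 279 and 315. Outside the genes of the rule, the highest ratio to non-cycling cells was that of Hmmr, a spindle-binding protein, at 104 CPM in both mice against 0.182 and 0.191. It was followed by the linker histone Hist1h1b (157 and 148 against 0.637 and 0.51) and by Hist1h2ap, Tpx2, Nusap1, Plk1 and Racgap1. Pclaf, which binds PCNA at the replication fork, stood at 373 and 359 CPM against 5.01 and 6.25. The cells thus carry the transcripts of dividing cells, which the choice of cells by cycling genes favours.

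Relative to G2/M transcripts, S-phase transcripts were lower in the cycling Olfm4-low than in the cycling Olfm4-high cells of the same mouse. The ratio of the summed S list to the summed G2/M list was 0.447 in WT2 (95% counting interval 0.436 to 0.459) and 0.406 in KO2 (0.40 to 0.41). In cycling Olfm4-high cells of the same mice it was 0.593 (0.578 to 0.609) and 0.673 (0.659 to 0.687), above the Olfm4-low value in each mouse. The size of the ratio depends on which genes the lists hold: in non-cycling cells, where both lists are low, it was 0.473 and 0.484. Of the Olfm4-low cells thinned to 5000 UMIs, 13 of 51 in WT2 (25.5%, exact binomial 95% interval 14.3 to 39.6) and 21 of 124 in KO2 (16.9%, interval 10.8 to 24.7) had more S than G2/M UMIs. Olfm4-high cells did so in 22 of 46 (47.8%) and 25 of 56 (44.6%), and non-cycling cells in 14.5% and 19.1%. The genes of the rule are highest in G2 and M, so the rule favours late cells in both groups. Without the highest 5% of cells by UMIs in each library, which left 18 of 53 Olfm4-low cells in WT2 and 69 of 125 in KO2, the ratio was 0.781 in WT2 (interval 0.722 to 0.844) and 0.440 in KO2. In the 15 and 36 Olfm4-high cells then left it was 0.825 (0.770 to 0.885) and 0.876, so that the intervals of the cycling groups overlap in WT2.

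**Figure D2:**
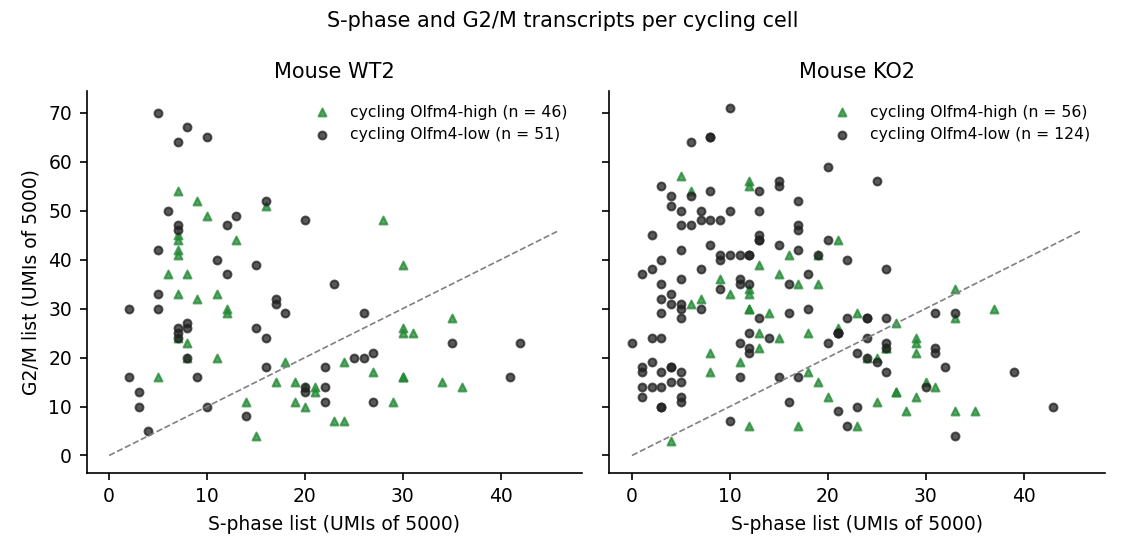
UMIs of the S-phase list (x axis) against UMIs of the G2/M list outside the rule (y axis) for each cycling cell thinned to 5000 UMIs, in mouse WT2 (left) and KO2 (right); the dashed line marks equal numbers. Of the Olfm4-low cells (circles), 13 of 51 and 21 of 124 fall below the line, against 22 of 46 and 25 of 56 Olfm4-high cells (triangles).

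Replication genes were near-equal in KO2 and WT2, a little lower on balance. Of 37 S genes at 20 CPM or more on average over the mice, 0 differed by 2-fold, 32 were below WT2 and 5 above, with a median log2 ratio of -0.12 beside -0.01 over all 6170 genes at that level. Of those 6170 genes, 0.389% were 2-fold higher and 0.956% lower, and 3252 were below WT2 and 2918 above. Pcna, the sliding clamp, stood at 170 CPM in WT2 and 160 in KO2, and Mcm5, part of the replicative helicase, at 60.3 and 47.7. Ccne1, the cyclin of S-phase entry, had the lowest ratio at 35.1 and 19.9 CPM (ratio 0.57, interval 0.45 to 0.73). Of the 47 G2/M genes at that level, 23 were above and 24 below.

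Among genes of cycle entry, Ccnd1 stood at 153 CPM in WT2 and 113 in KO2, Ccnd2 at 182 and 216, and Cdk6, a partner of both cyclins, at 38.1 and 57.9. Replication-dependent histones were uneven: Hist1h2ap stood at 188 CPM in WT2 (interval 173 to 205) and 443 in KO2 (430 to 456), and Hist1h2ae at 138 and 244, while Hist1h1b was 157 and 148. The log2 ratio of Hist1h2ap was 1.23, and 2.03 without the highest 5% of cells by UMIs in each library. It also stood at 195 and 578 CPM in Olfm4-high cells. Histone genes of these clusters have near-identical copies, and how reads were split among them is not given in the sources used here.

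Stem cell transcripts were low by comparison with the Olfm4-high cells, beyond the gene used to separate them. Lgr5, the stem cell receptor for R-spondins, had 0 UMIs in WT2, where 3 UMIs would be 1.01 CPM, and 2.67 CPM in KO2, against 70.5 and 67.8 CPM in Olfm4-high cells. Axin2, a feedback inhibitor of Wnt signalling, stood at 9.44 and 13.7 CPM against 55.5 and 83.1, and Myc at 15.5 and 15.6 against 57.4 and 45.2. Aqp4, Smoc2, Cdca7, Sox9 and Slc12a2 were likewise below the Olfm4-high level in both mice. The stem cell list without Olfm4 summed to 663 and 522 CPM against 2271 and 2272 in Olfm4-high cells, and 16 of its 16 genes were lower in each mouse. How many of all genes were below the Olfm4-high level was not counted, so this count has no background share beside it. Olfm4 itself stood at 84.3 and 92.6 CPM in the Olfm4-low cells, and 15 of 53 and 36 of 125 had none.

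Between the mice, stem cell genes were mostly similar. Of 9 genes of the list at 20 CPM or more, 1 was at least 2-fold lower in KO2 and 0 higher; over all 6170 genes the background was 0.956% lower and 0.389% higher. The gene was Clca3b, a chloride channel accessory family member, at 220 CPM in WT2 and 78.4 in KO2 (ratio 0.36, interval 0.32 to 0.40), which was also 626 and 359 CPM in Olfm4-high cells. Slc12a2 (128 and 123 CPM) and Smoc2 (59.7 and 57.0) lay within their counting intervals of each other. Hes1, the Notch target of absorptive commitment, stood at 62.4 and 77.7 CPM.

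**Figure D3:**
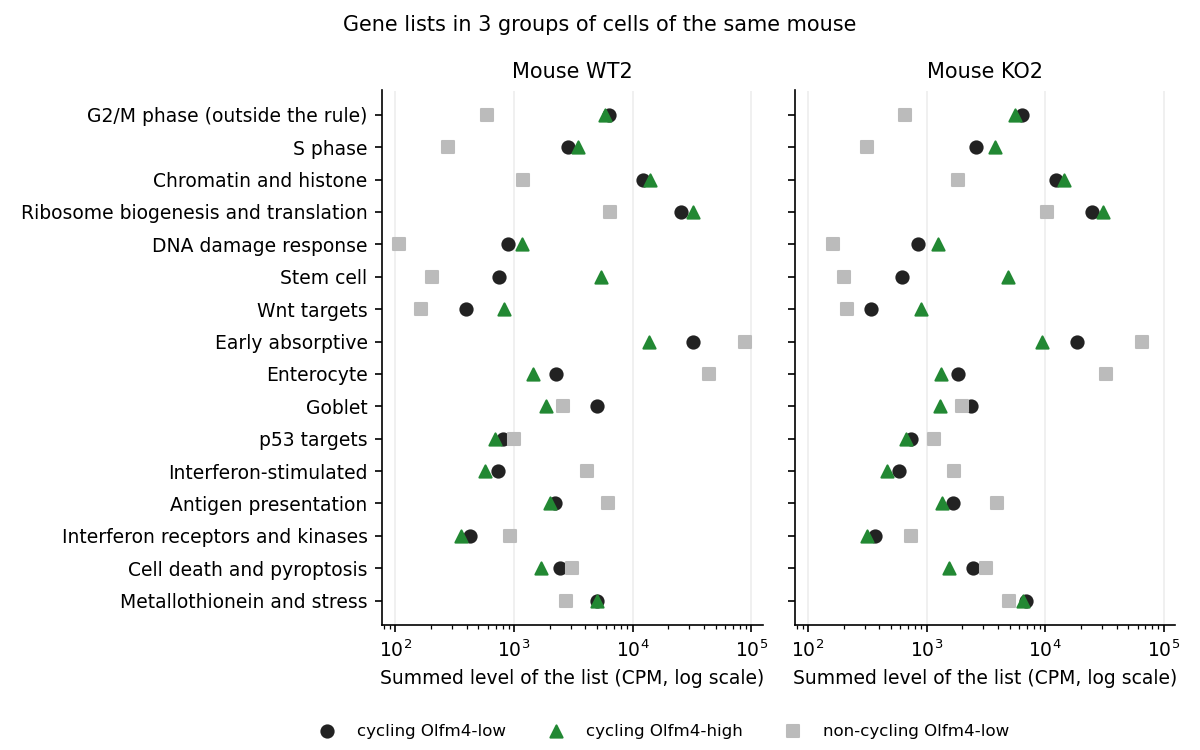
Summed level of 16 gene lists (CPM, log scale) in cycling Olfm4-low cells (circles), cycling Olfm4-high cells (triangles) and non-cycling Olfm4-low cells (squares) of mouse WT2 (left) and KO2 (right). The stem cell list, which holds Olfm4, by which the cycling groups were split, stands at 747 against 5459 CPM in WT2 (663 against 2271 without Olfm4), and interferon-stimulated genes separate both from non-cycling cells (735 against 4157 CPM in WT2).

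Absorptive genes were already present. The early absorptive list summed to 32498 CPM in WT2 and 18454 in KO2, against 13850 and 9429 in Olfm4-high and 89083 and 65939 in non-cycling cells, so the Olfm4-low cells lay between these groups in both mice. The lower sum in KO2 does not describe most of the list. Of its 16 genes 9 were above WT2 and 7 below, with a median log2 ratio of 0.20. Reg3b and Reg3g, described below, fell from 12247 and 5820 CPM in WT2 to 2187 and 1033 in KO2. Mature enterocyte genes were low, at 2272 and 1855 CPM against 43891 and 32309, with 20 of 20 below the non-cycling level in both mice. Of the 13 at 20 CPM or more, 0 were above that level in both mice, beside 3931 of all 6170 genes. Dmbt1, a secreted scavenger receptor, at 2131 and 1787 CPM was above both groups, which stood at 485 and 677 CPM (non-cycling) and 1182 and 791 (Olfm4-high). Rbp7, a retinoid-binding protein, was also above both groups in both mice, at 92.0 and 186 CPM. Vil1, whose promoter drives the Cre, stood at 141 CPM in WT2 and 309 in KO2, against 669 and 761 in non-cycling cells.

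Reg3b and Reg3g were more than 5-fold lower in KO2 than in WT2. Reg3b (chr6:78370657-78373466), a C-type lectin against Gram-negative bacteria, stood at 12247 CPM in WT2 (interval 12121 to 12373) and 2187 in KO2 (2158 to 2216), a ratio of 0.179. Its neighbour Reg3g, directed at Gram-positive bacteria, stood at 5820 and 1033 CPM. Both were lower in KO2 also in Olfm4-high cells (2905 and 914 CPM for Reg3b) and in non-cycling cells (37400.1 and 15907). Over the 6 mice, however, non-cycling Reg3b ranged from 9557 to 37400.1 CPM in WT and from 9444 to 22977 in KO, so the genotypes overlap.

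In the other direction, Fabp1 (chr6:71199827-71205023), a fatty acid-binding protein of absorptive cells, stood at 350 CPM in WT2 (interval 329 to 372) and 1544 in KO2 (1520 to 1569), and Rbp2, which binds retinol, at 194 and 535. Sis (sucrase-isomaltase) stood at 76.5 and 193 CPM, Gsta1 at 56.6 and 118, Adh1 at 16.9 and 70.5, and Arg2, the mitochondrial arginase, at 96.8 and 305. In non-cycling cells Fabp1 was 8288 and 12686 CPM and Arg2 was 293 and 501, higher in KO2 there too. Over the 6 mice, however, the genotypes overlap in these cells. Fabp1 ranged from 1859 to 8288 CPM in WT and from 2862 to 12686 in KO, and Arg2 from 20.1 to 293 and from 65.5 to 501. Without the highest 5% of cells by UMIs in each library the log2 ratio moved from 2.14 to 3.26 for Fabp1 and from 1.65 to 2.87 for Arg2. That of Rbp2 fell below 2-fold, from 1.46 to 0.56, and was 0.48 over all cells of a library whatever their hashtag. Of the 16 early absorptive genes, 4 were at least 2-fold higher and 2 at least 2-fold lower in KO2, beside 0.389% and 0.956% of all genes tested. Apolipoprotein genes lay on the other side, with Apoa1 at 731 and 484 CPM and Apoa4 at 456 and 253.

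Duox2 and its maturation factor Duoxa2, which make hydrogen peroxide at the epithelial surface, stood at 41.8 and 59.3 CPM in WT2 and 6.83 and 9.70 in KO2. Cyba, a subunit of NADPH oxidases, stood at 176 and 74.0 CPM. The Duox2 ratio of 0.163 (interval 0.120 to 0.221) compared with 164 and 105 CPM in non-cycling cells. Over the 6 mice, non-cycling Duox2 stood at 165, 164 and 193 CPM in WT and at 192, 105 and 128 in KO, so the genotypes overlap. The log2 ratio of Duox2 was -2.53, and -1.06 when each cell was thinned to 5000 UMIs, which gives the cells equal weight. In all, 24 of 6170 genes (0.389%) were at least 2-fold higher in KO2 and 59 (0.956%) at least 2-fold lower, and these counts were 150 and 664 without the highest 5% of cells by UMIs in each library. The counting interval of the ratio lay above 1 for 864 genes (14%) and below 1 for 927 (15%), so a ratio outside its counting error was common between these 2 mice.

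Secretory transcripts were higher in WT2 but unevenly spread among its cells. The goblet list summed to 5014 CPM in WT2 and 2347 in KO2, and 6 of its 9 genes at 20 CPM or more were at least 2-fold lower in KO2, beside 0.956% of all genes tested. Agr2, a disulfide isomerase of mucus-producing cells, stood at 1301 and 421 CPM, Spink4 at 1101 and 448, and Muc2, the main intestinal mucin, at 215 and 96.3. A single cell held 38.2% of the Muc2 UMIs of WT2, and without the top cell of each mouse the Muc2 ratio was 0.588, no longer 2-fold; that of Agr2 was then 0.277. Without the highest 5% of cells by UMIs in each library the log2 ratio of Agr2 turned from -1.63 to 0.50. Muc2, Tff3, Fcgbp, Zg16 and Clca1 were bounded by the rule, so their levels are partly set by it.

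The median cell did not differ in this way: thinned to 5000 UMIs it held 6 goblet-list UMIs in both WT2 and KO2, with maxima of 269 and 259. Atoh1, the transcription factor that commits cells to the secretory lineage, stood at 21.2 CPM in WT2 and 5.05 in KO2, and Spdef, its goblet and Paneth cell effector, at 27.3 and 5.84. A single cell held 39.7% of the Atoh1 UMIs and 33.3% of the Spdef UMIs in WT2. Creb3l1 was 55.0 and 13.8 CPM. Chgb, Chga, Reg4 and Nrg1 had the lowest ratios of all, but 1 WT2 cell held over 95% of the UMIs of each, and Ghrl, the ghrelin gene with the highest ratio, owed 98.1% of its KO2 UMIs to 1 cell.

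Transcripts of immune, stromal and tuft cells were few, whereas those of Paneth and enteroendocrine cells were not. The Paneth list summed to 686 CPM in WT2 and 449 in KO2, against 561 and 929 in non-cycling cells, after cells rich in defensins and Lyz1 had been left out by the rule. Its highest gene, the defensin Defa24, stood at 439 and 250 CPM, with 75.9% and 21.7% of its UMIs in 1 cell. The enteroendocrine list summed to 474 and 298.9 CPM, against 2022 and 1705, mostly from Chgb and Chga of 1 WT2 cell and Ghrl of 1 KO2 cell. Of the immune list 9 of 14 genes had 0 UMIs in both mice (Ptprc, Cd3e, Cd4 and C1qa among them), of the stromal list 7 of 10 (Col1a1, Col3a1 and Cdh5 among them), and the sums were 0.674 and 0.792 CPM and 0.337 and 0.396 CPM. The neutrophil list summed to 3.37 and 2.08 CPM and the tuft list to 4.38 and 2.97. Dclk1, a tuft cell kinase, was among the 10 genes lowest against non-cycling cells, with the gut hormones Gip and Nts. Igkc, Igha and Jchain, of plasma cells, were also among them, and stood at 1955, 257 and 219 CPM in non-cycling cells of WT2 and at 0, 0.0638 and 0 in those of KO2.

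Ifnlr1 (chr4:135686287-135708181), the gene floxed in the KO mice, had 11 UMIs in the cycling Olfm4-low cells of WT2 (3.71 CPM, interval 1.85 to 6.64) and 127 in those of KO2 (12.6 CPM, 10.5 to 15.0). In non-cycling cells it stood at 33.7, 25.3 and 33.8 CPM in WT1, WT2 and WT3 and at 36.0, 23.3 and 30.2 in KO1, KO2 and KO3, so the genotypes overlap. The exons that Cre removes are not given in the sources used here, and 3′ counts outside them do not check the deletion. Il10rb, the other receptor chain, stood at 31.4 and 32.4 CPM in the cycling cells against 61.3 and 53.3. Both chains were thus lower in cycling than in non-cycling cells of the same mouse, and of the 12 genes of interferon receptors and kinases, 11 were. Of the 6 at 20 CPM or more, 0 were higher in cycling cells of both mice, beside 3931 of all 6170 genes.

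Interferon-stimulated genes were low in the cycling cells of both mice. Of 51 measured, 42 were below and 2 above the non-cycling level in both mice, and the list summed to 735 CPM in WT2 and 590 in KO2, against 4157 and 1707 in non-cycling cells. Of the 10 at 20 CPM or more, 1 was above the non-cycling level in both mice, beside 3931 of all 6170 genes. Isg15 stood at 11.5 CPM in WT2 (interval 7.94 to 16.0) and 7.33 in KO2 (5.75 to 9.20), against 286 and 53.1. Irf7, the transcription factor that amplifies interferon responses, stood at 18.2 and 9.40 CPM against 185 and 88.4, and Oasl1 at 16.2 and 6.63 against 183 and 104. At 5000 UMIs per cell, Isg15 was seen in 9.80% and 4.84% of cycling cells and in 57.8% and 26.1% of non-cycling cells, whose median depths before thinning were lower.

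The ratio of KO2 to WT2 for the summed list was 0.803 (counting interval 0.764 to 0.844) in the cycling Olfm4-low cells, 0.812 (0.759 to 0.870) in Olfm4-high cells and 0.411 (0.404 to 0.417) in non-cycling cells. With 1 mouse per genotype, the difference between these ratios was not tested. Of the 10 genes of the list at 20 CPM or more in the cycling cells, 7 were below WT2 and 3 above, 0 by 2-fold, with a median log2 ratio of -0.13. In non-cycling cells all 10 were below WT2, with a median of -0.86. Over all genes tested, 0.389% were 2-fold higher and 0.956% lower in the cycling cells. Oasl1, whose mean is under 20 CPM, is outside the 10 and was more than 2-fold lower in KO2. Ifi27l2b stood at 113 CPM in WT2 and 84.7 in KO2, and Ifih1, an RNA sensor, at 28.3 and 17.0. Across all 6 mice the non-cycling sum was 4882, 4157 and 5641 CPM in WT and 2836, 1707 and 2565 in KO, and these do not overlap. Other lists were separated in this way too, in both directions. The antigen presentation sum was 5976 to 7136 CPM in WT and 3897 to 5860 in KO. The metallothionein and stress sum was 2386 to 2729 CPM in WT and 3192 to 4900 in KO. The share of all genes so separated was not counted.

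**Figure D4:**
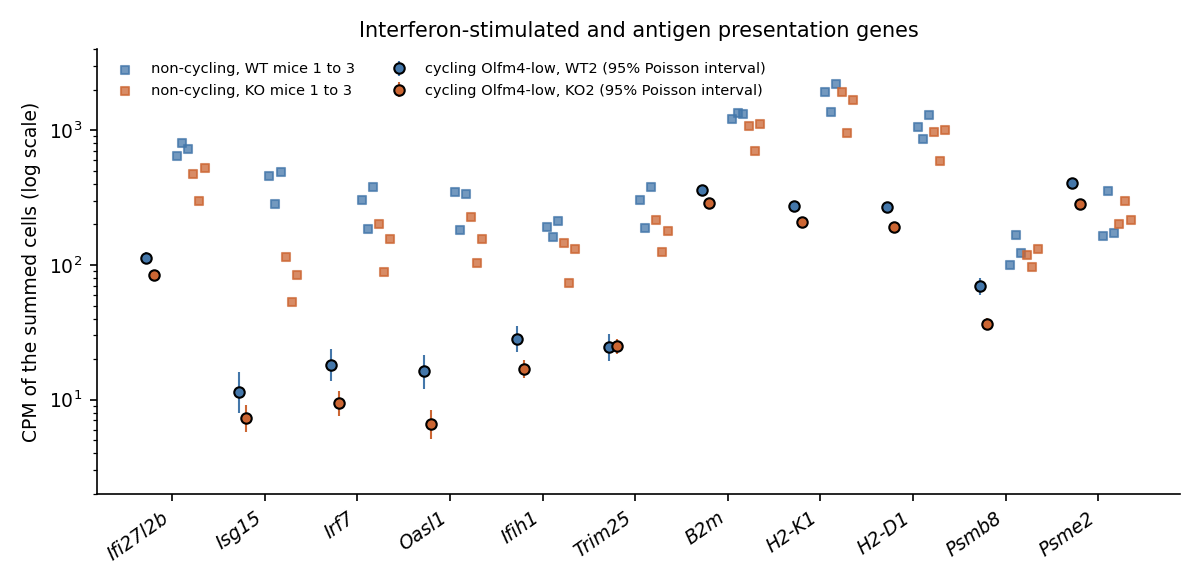
Level (CPM, log scale) of 6 interferon-stimulated and 5 antigen presentation genes in cycling Olfm4-low cells of WT2 and KO2 (circles, with 95% Poisson intervals) and in non-cycling Olfm4-low cells of each of the 6 mice (squares). Isg15 stands at 11.5 and 7.33 CPM in the cycling cells and at 53.1 CPM or more in the non-cycling cells of WT2 and KO2, whereas Psme2 is not lower in the cycling cells of WT2 (405 against 357 CPM).

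Antigen presentation genes were lower in KO2 than in WT2. The list summed to 2217 and 1672 CPM (ratio 0.754, interval 0.733 to 0.776), and 11 of 13 genes at 20 CPM or more were below WT2, 0 by 2-fold, with 9 intervals below 1 and 0 above, beside 15% below and 14% above over all genes tested. B2m, the light chain of class I molecules, stood at 359 and 291 CPM, H2-D1 at 271 and 193, and Psmb8, an immunoproteasome subunit, at 69.4 and 36.6. In non-cycling cells the ratio of the sums was 0.631. Cd74, the class II invariant chain, chosen here after its values were seen, stood at 25.6 CPM (76 UMIs) in WT2 and 0.396 (4 UMIs) in KO2, and at 247 and 4.91 in non-cycling cells.

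Genes of pyroptosis, the lytic death in which gasdermins perforate the membrane, were present at a similar total in both mice. The cell death and pyroptosis list summed to 2460 CPM in WT2 and 2444 in KO2, against 3097 and 3174 in non-cycling cells. The sums in the cycling cells rest largely on Pycard, given below. Of the 28 genes of the list, 19 were below and 5 above the non-cycling level in both mice. Of the 15 at a mean of 20 CPM or more, 1 was above that level in both mice, beside 3931 of all 6170 genes. Between KO2 and WT2, 0 of these 15 differed by 2-fold, beside 0.389% higher and 0.956% lower over all genes tested. Pycard, the adaptor that assembles caspase-1, stood at 1431 and 1482 CPM, above non-cycling (440 and 743) and Olfm4-high cells (933 and 792). Casp1 was level at 108 and 107. Casp4, the sensor of intracellular lipopolysaccharide, stood at 30.3 and 8.61 CPM, and Casp8, the initiator of receptor-driven death, at 78.5 and 84.0. Casp4, like Gsdmc2 below, has a mean under 20 CPM and lies outside the count of 2-fold genes. Each was more than 2-fold lower in KO2.

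The gasdermins split. Gsdmd, the substrate of caspase-1, stood at 24.9 CPM in WT2 and 15.2 in KO2, far below non-cycling cells (372 and 271). Gsdmc4 stood at 22.2 and 14.5 CPM, above non-cycling (3.10 and 7.53) and Olfm4-high cells (2.62 and 1.23) of each mouse, and Gsdmc2 at 15.8 and 6.04 CPM, likewise above both. A single WT2 cell held 31.8% of the Gsdmc4 UMIs and 40.4% of those of Gsdmc2. At 5000 UMIs Gsdmc4 was seen in 15.7% and 4.03% of the cycling Olfm4-low cells and in 0.763% and 0.675% of non-cycling cells. Gsdmc genes are close paralogs, so their counts are uncertain.

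**Figure D5:**
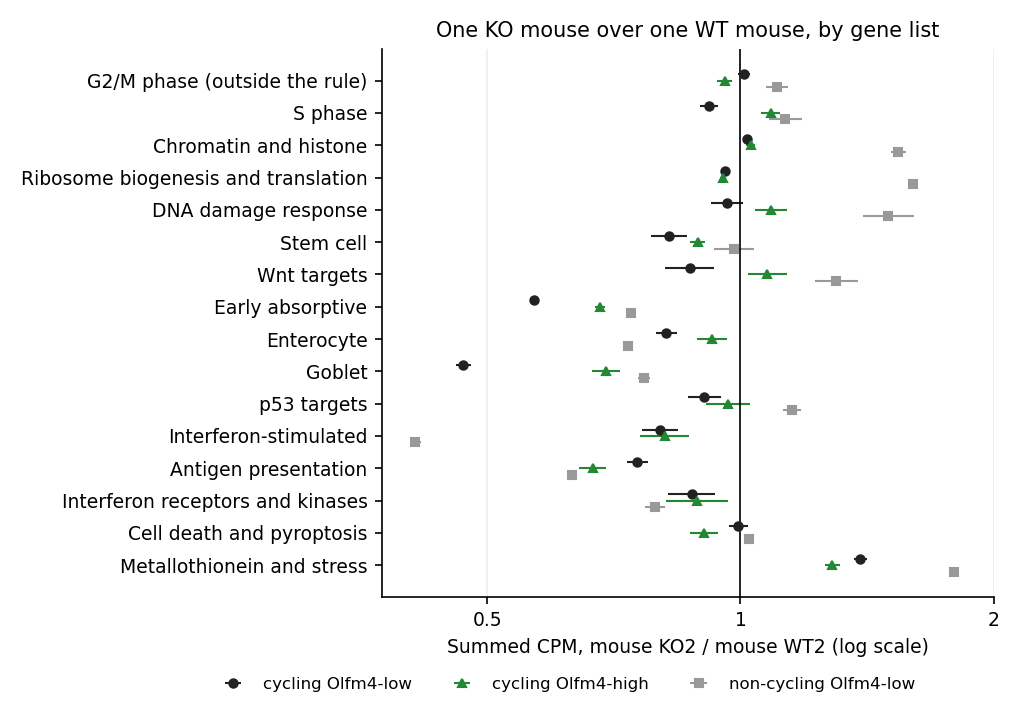
Ratio of the summed CPM of 16 gene lists in mouse KO2 to mouse WT2 (log scale) in cycling Olfm4-low (circles), cycling Olfm4-high (triangles) and non-cycling Olfm4-low cells (squares), with 95% counting intervals and a line at 1. The goblet list has the lowest ratio in the cycling Olfm4-low cells (0.468), and the interferon-stimulated list in the non-cycling cells (0.411, against 0.803 in the cycling Olfm4-low cells).

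Genes of the DNA damage response and p53 targets showed no large difference between the mice. Of the 26 genes of DNA damage response 26 were above the non-cycling level in both mice, and the list summed to 885 and 852 CPM, against 108 and 162 in non-cycling cells. At 20 CPM or more, 16 of 16 were above the non-cycling level, beside 3931 of all 6170 genes. Cycling Olfm4-high cells stood higher still, at 1156 and 1256 CPM, so the excess was not particular to the Olfm4-low cells. Both groups were chosen by cycling genes, and the part of damage in these levels was not tested. The p53 target list summed to 807 CPM in WT2 and 731 in KO2, against 1005 and 1157, with 0 of 10 genes at 20 CPM or more differing by 2-fold. Over all genes tested, 0.389% were 2-fold higher and 0.956% lower. Cdkn1a, the p21 cell cycle inhibitor, stood at 74.2 and 77.9 CPM, below non-cycling cells (267 and 241) and above Olfm4-high cells (21.7 and 15.2). Mdm2, which targets p53 for degradation, stood at 37.4 and 22.8 CPM, with 36.9% of the WT2 UMIs in 1 cell and a ratio of 0.887 without the top cell of each mouse. Trp53 itself was 95.1 and 88.5 CPM.

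Mt1 was at least 2-fold higher in KO2, the 1 gene of the 12 of the metallothionein and stress list at 20 CPM or more to be so, and 0 were 2-fold lower; 8 were above WT2 and 4 below. Mt1, a zinc-binding protein, stood at 693 CPM in WT2 (interval 664 to 724) and 1775 in KO2 (1749 to 1801). In non-cycling cells it stood at 137, 741 and 197 CPM in WT1, WT2 and WT3 and at 805, 2268 and 1152 in KO1, KO2 and KO3, which do not overlap. The share of all genes without such overlap was not counted. The chaperones Hspe1 (1001 and 1354 CPM), Hspd1 (974 and 1196) and Hsp90aa1 (769 and 923) were on the same side, and Hsph1, a chaperone outside the list, at 30.0 and 79.0 CPM was 2.63-fold higher. Mt2 was on the other side, at 124 and 69.3 CPM. Regenerative genes were near-equal in sum, 1386 and 1383 CPM, below the non-cycling level of 3046 and 3423, and Ly6a, a marker of repairing epithelium, stood at 27.6 and 19.1 CPM, with 61.0% and 51.8% of its UMIs in 1 cell of each mouse.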

How the data were processed

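Transcripts were counted in single cells from 1 WT and 1 KO pool of 3 mice each, with a hashtag library beside each. Values in the deposited matrices are raw UMI counts per gene and barcode, not normalized; per the submitters' processing notes Cell Ranger 7.0.1, Seurat 4.1.0 and the mm10 build were used, with roles not given in the sources used here. Whether intronic reads were counted is not given either. The files' whole-number counts, 17823 barcodes in all, were filtered as stated, and mice were assigned with HTODemux (Seurat 5.3.0, R 4.3.3, positive quantile 0.99) on all barcodes.

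The planned edgeR tests between genotypes, their interaction and the S to G2/M test need at least 2 mice per genotype with 10 or more cells. Only WT2 and KO2 had them, so these tests were not run. UMIs were instead summed over the cells of WT2 (2966327) and KO2 (10101727) and given as CPM with exact Poisson intervals and exact binomial intervals of ratios and shares, at 95%. Genes at a mean of 20 CPM or more, mitochondrial ones aside, were counted at a 2-fold rule, which replaced p-values in naming genes: the 10 highest and 10 lowest ratios, up to 4 genes of a list by level and 3 by size of ratio, the 20 highest and 10 lowest against non-cycling cells, and the genes of the rule, Olfm4, Ifnlr1 and Il10rb. Other genes named were chosen after their values were seen. A gene of the interferon-stimulated list is not reported here by name. The cells, gene lists and alternatives were chosen with earlier results of these data known. No doublet caller was used beyond hashtags.

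Hashtag numbers are shared by the genotypes. Over all filtered cells, deviations of mice from their genotype means correlated between same-numbered mice (0.667, 0.917 and 0.781 over 5697 genes). Mice 1 and 3 correlated across numbers too, with 0.717 for WT1 with KO3 and 0.796 for WT3 with KO1. Mouse 2 correlated negatively with mice 1 and 3 of the other genotype, from -0.856 to -0.748. Deviations of 3 mice from their own mean cancel out, so the values are not independent of each other. These values thus set only WT2 with KO2 apart by number. The calculation of ratios and intervals was tested on simulated data. Promoters came from the RefSeq table of GRCm38.p6 and gene positions from GENCODE on GRCm38 (mm10). Python 3.11.15 with scipy 1.17.1 was used.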

Additional observations from a re-analysis of the deposited data

Results flagged for a closer look

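Cycling Olfm4-low cells also lay among barcodes that no comparison between mice used. They made up 1.43% of the 2241 filtered WT barcodes without a hashtag (32 cells, exact binomial 95% interval 0.979 to 2.01), above the share that 3 cells would give. Among barcodes with several hashtags they made up 3.46% of 549 in WT (19 cells, interval 2.10 to 5.35) and 3.61% of 305 in KO (11 cells, interval 1.81 to 6.36). The cells without a hashtag had a median of 8618 UMIs in WT, against 54072 in WT2, and those with several 12490. Barcodes with several hashtags are likely to hold more than 1 cell, so their share is not one of cells.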

How the results depend on the processing

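The difference in share between genotypes stayed positive, with exact p from 0.4 to 1, under every alternative except without KO2. Leaving out 1 mouse gave -2.00 to 4.23 points, the lowest without KO2. With the hashtag number as replicate block the difference was 2.15 points (exact sign-flip p = 0.5), and the pairing changed no other call. No paired analysis was possible for genes, the interaction or the S to G2/M ratio because only 1 pair of mice had enough cells; edgeR, DESeq2, their size factors, leaving out a mouse and the Olfm4-high comparator were for the same reason not run as tests.

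The S to G2/M ratio was 0.413 in WT2 and 0.38 in KO2 with a cycling limit of 6, 0.359 in KO2 with Olfm4 under 2 per 10000, 0.50 and 0.389 in cells thinned to 5000 UMIs, and 0.414 for all KO cells whatever their hashtag. Without the highest 5% of cells by UMIs in each library, which left 18 of 53 and 69 of 125 cells, it was 0.781 and 0.440, the interferon-stimulated ratio of KO2 to WT2 fell to 0.567, 150 genes were 2-fold higher and 664 lower, and the log2 ratio of Agr2 turned to 0.50. That ratio of the interferon-stimulated sum was 0.677 in thinned cells and 0.697 for all cells of a library. Genes 2-fold higher numbered 37 with Olfm4 under 2 per 10000. In thinned cells 247 genes were higher and 350 lower, without a filter on low values 3028 and 2188, where fewer counts per gene enter; 24 were lower at 50 CPM or more. The other causes were not tested. Depth limits low genes: 3 UMIs are 1.01 CPM in WT2 and 0.297 in KO2. The alternatives with all cells of a library, with 50 CPM and without the top cell were chosen after seeing the data.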
